A study of Mus musculus with 629 samples.

Results

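The genes described here are the heat shock proteins and DnaJ chaperones of the mouse. They were taken by name from the deposited count table: every gene symbol that begins with Hspa, Hspb or Dnaja, Dnajb or Dnajc and a digit, every symbol that begins with Hsp90, and Hspd1, Hspe1 and Hsph1, without entries marked as pseudogenes. Of the 53546 gene symbols in the table, 76 matched and 4 of these were pseudogenes, which left 72 genes: 13 Hspa, 8 Hspb, 3 Hsp90, 45 Dnaj and the 3 single names. The choice used names and no measured value. The cells were 400 macrophages and 215 microglia sorted singly from the brains of adult C57BL/6 mice that were wild-type (WT), heterozygous (Het) or knockout (KO) for Notch3 and were sequenced by SMART-seq2, which reads full-length polyadenylated RNA without molecular identifiers. According to the labels all mice belonged to a reporter line, SM22-Cre;Rosa26-stop-tdTomato, in which Cre under the smooth muscle promoter SM22 switches on a red fluorescent protein. The labels do not say which sorting gate the macrophages and microglia came from.

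Heat shock proteins hold other proteins in a foldable state. Hsp70 proteins (the Hspa genes) bind short stretches of unfolded chains in a cycle driven by ATP, DnaJ proteins (also called Hsp40) bring clients to Hsp70 and start its ATP hydrolysis, and Hsp110 proteins exchange the nucleotide. Hsp90 finishes the folding of kinases and receptors, the mitochondrial pair Hspd1 and Hspe1 encloses clients in a chamber, and the small heat shock proteins (Hspb) hold clients without ATP. Some members serve all cells at all times, and others are switched on by the heat shock factor HSF1 when proteins unfold in the cytosol, or by the unfolded protein response when they unfold in the endoplasmic reticulum (ER). Enzymatic or mechanical dissociation of brain tissue is known to switch on immediate early genes, such as Fos and Jun, in microglia, and heat shock genes are often listed among the genes that move with them.

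Both programmes act through short promoter elements, and the stretches that carry them are printed here for the stress-inducible genes on which the results turn. RefSeq promoters (GRCm38.p6, 250 bases before and 50 after the start of transcription) were found for 58 of the 72 genes. The ER stress element, CCAAT and CCACG with 9 bases between them on either strand, was present in Hspa5, Hsp90b1 and Dnajc3, 3 of the 12 ER members with a promoter, and in 0.137% of all 27025 genes. It is in capitals in the first 3 stretches below, and Hsp90b1 holds it in both orientations. The heat shock element was searched in a 2-unit form, GAANNTTC or TTCNNGAA, and in a longer form with 3 units, in which GAA and TTC take turns with 2 bases between them. The longer form was present in Dnajb6, Hspd1, Hspe1 and Hsph1 and in 0.662% of all genes. The shorter form was present in 16 of the 58 genes and in 17.0% of all genes, and among the genes listed as HSF1 targets it was in 9 of 12. The Hspe1 stretch, with the elements in capitals, lies in the shared promoter of Hspe1 and Hspd1, which point away from each other. The last stretch, from Hspa1a, has 1 shorter element in capitals and is the same in Hspa1b (chr17:34959309-34959368, minus strand). A match is a description of the letters and no evidence of binding.
Hspa5, chr2:34772020-34772049, plus strand, within an annotated Hspa5 exon of GENCODE M21: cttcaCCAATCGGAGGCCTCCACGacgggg
Hsp90b1, chr10:86705525-86705664, minus strand, outside annotated exons: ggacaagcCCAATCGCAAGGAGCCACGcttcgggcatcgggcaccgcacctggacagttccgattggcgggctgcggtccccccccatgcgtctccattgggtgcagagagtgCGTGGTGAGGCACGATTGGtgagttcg
Dnajc3, chr14:118937812-118937861, plus strand, outside annotated exons: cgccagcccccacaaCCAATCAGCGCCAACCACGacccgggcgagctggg
Hspe1, chr1:55088053-55088082, plus strand, within an annotated Hspd1 exon of GENCODE M21: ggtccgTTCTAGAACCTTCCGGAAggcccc
Hspa1a, chr17:34972227-34972286, minus strand, outside annotated exons: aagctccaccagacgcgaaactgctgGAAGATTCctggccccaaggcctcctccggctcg

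Levels are given as CPM, counts per 1000000 of the summed gene counts without the ribosomal RNA gene Rn18s, whose median share per cell ranged from 13.8% to 55.9% between groups of cells. Cells that share a plate and a genotype form what is called a pool. Each cell type had 8 pools of 15 to 138 cells: WT on plates 059s, 529s and 530s, Het on 056s, 524s and 529s, and KO on 060s and 524s, and pools are listed in this order. No label named an animal, so a genotype of a cell type counted as 1 sample and no test was made between genotypes or cell types. What is said of a difference rests on the overlap of pools and on the share of all genes that meet the same rule. Xist and Y-linked genes placed each pool in 1 sex, and on plates 524s and 529s the 2 genotypes differed in sex, so genotype and sex cannot be told apart within those plates. Notch3 gave 77 counts in 1 WT macrophage and at most 2 counts in any other genotype and cell type, too few to check the labels. Tmem119, a microglia marker, stood at 73.1 CPM in macrophages and 5884 in microglia, and the macrophage marker Mrc1 at 7836 and 3421 CPM, so the macrophage markers were not absent from microglia. The Het pool of plate 056s stood apart, with the lowest Rn18s share and a median of 891311 counts per macrophage against 109021 to 361651 in the other pools, and it held 33892157 of the 39050977 counts of Het macrophages.

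To be called expressed in a cell type, a gene needed a level of 10 CPM there and a count in 10% of the cells. Of the 72 chaperone genes, 41 were expressed in macrophages, 43 in microglia and 45 in either, where 14.5%, 15.4% and 16% of all gene symbols were. The summed level of all 72 genes was 5108 CPM in macrophages, between 4834 and 5810 CPM in single pools, and 4674 CPM in microglia, between 4285 and 5234 CPM. The KO pool of plate 060s was the highest and the WT pool of plate 530s the lowest in both cell types. Levels per kilobase of all annotated exons of a gene allow a rough comparison between genes. On this scale Hsp90ab1 led in macrophages at 288 CPM per kb, before Hspa5 at 242. Hsp90b1 at 132, Hspa8 at 56.7 and Dnajb1 at 48.3 followed. In microglia the same 5 genes stood at 226, 210, 139, 50.2 and 47.8 CPM per kb, and Dnajc7 lay between Hspa8 and Dnajb1 at 48.7. Reads lost to stretches shared with other genes are not corrected for. Of the Hspa8 stretches 74.8% are shared, so its place in this order is uncertain.

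**Figure D1:**
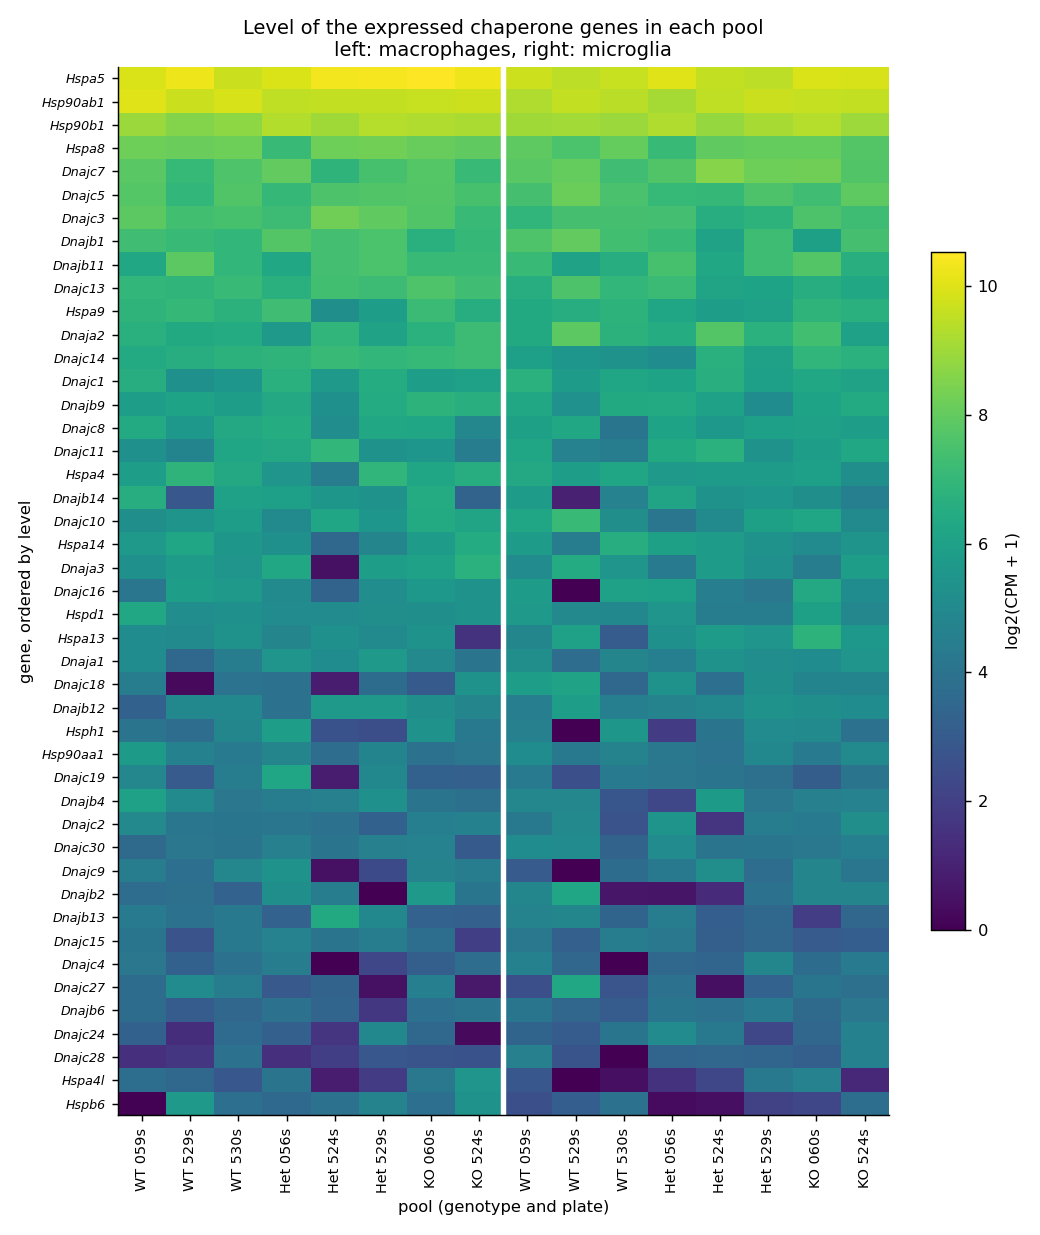
Each row is 1 of the 45 expressed chaperone genes and each column 1 of 8 pools of macrophages (left) or microglia (right), with colour giving log2(CPM + 1). Hspa5, Hsp90ab1 and Hsp90b1 are bright in all 16 columns, while some genes of the lower rows, such as Dnajb2 and Dnajc4, are at 0 in single pools.

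Chaperone levels showed no common shift between macrophages and microglia. The median log2 ratio of macrophages to microglia over the 45 expressed members was 0.02, and over all 8590 expressed genes it was also 0.02. A gene was called apart between the cell types when the summed levels differed at least 2-fold and every pool pointed the same way, and 0 of the 45 members were, where 5.58% of all expressed genes were (1.48% higher and 4.1% lower in macrophages). Even the 10 perivascular macrophage markers had log2 ratios of only 1.02 to 1.40, and 9 of them were apart. The rule thus left little room for a gene higher in macrophages. The ratios of the cell types on the log2 scale ran from -1.31 for Dnajc18 to 1.15 for Hspb6. Next to Hspb6 at the macrophage end came Dnajc19, which serves the import motor of mitochondria, at 1.12 and Dnajc9, a histone chaperone, at 0.88. They were higher in macrophages in 6, 6 and 5 of the 8 pools. At the microglia end followed Dnajc28 at -1.05 and Dnajc24, which acts in the diphthamide modification of elongation factor 2, at -0.80. Dnajc18, Dnajc28 and Dnajc24 were lower in macrophages by the sums but in 6, 7 and 6 of 8 pools. Dnajc24 lost this difference when each cell was thinned to 50000 counts (0.01). The pair that was higher in macrophages in 8 of 8 pools had small ratios, 1.62-fold for Dnajc14 and 1.13-fold for Hspa8.

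Among the cytosolic chaperones, Hsp90ab1, the Hsp90 that cells keep at all times, stood in macrophages at 1021, 827 and 960 CPM in the WT pools, 727, 758 and 761 in the Het pools and 806 and 836 in the KO pools. In microglia its pools ran from 546 CPM (Het, plate 056s) through a median of 745 to 812 CPM (Het, plate 529s). The KO pools thus lay inside the range of the controls in both cell types. Hsp90aa1, the Hsp90 that stress induces, was at 26.2 CPM in macrophages and 25.7 in microglia. Per kilobase, Hsp90ab1 was 43.3 times as high as Hsp90aa1 in macrophages and 34.5 times in microglia, but 58.5% of the 50-base stretches of the Hsp90aa1 transcript also occur in other transcripts, against 4.49% for Hsp90ab1, so that reads of Hsp90aa1 could have been left uncounted and this ratio is uncertain. Hsp90aa1 in macrophages ran from 12.5 to 52.0 CPM with the WT pool of plate 059s as the highest, and the KO level of 14.9 CPM was lower than the WT level of 29.8 and the Het level of 25.8. The KO pools, at 14.2 and 16.9 CPM, lay inside the range of the controls, since the Het pool of plate 524s was at 12.5.

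Hspa8, the Hsp70 of unstressed cells, had a count in 98.3% of macrophages and 99.1% of microglia. Its macrophage pools stood at 291, 278 and 298 CPM in WT, 136, 293 and 313 in Het and 269 and 244 in KO. In microglia they were at 244, 185 and 260 CPM in WT, 135, 245 and 259.9 in Het and 260.0 and 207 in KO. The Het pool of plate 056s was the lowest in both cell types, and without that plate the log2 ratio of Het to WT macrophages went from -0.89 to 0.04. Of the Hspa8 transcript 74.8% of 50-base stretches are shared with other genes, among them Gm15459, which was counted at 19.1 CPM in macrophages and 11.8 in microglia.

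Few counts were listed for the inducible Hsp70 genes. Hspa1a had 1426 counts in 11 of 400 macrophages, and 85.3% of them came from 1 cell in the Het pool of plate 056s. In microglia it had 16 counts in 2 of 215 cells. By pool, Hspa1a macrophages stood at 36.0 CPM in that Het pool, 8.08 CPM in WT on plate 059s and 1.47 CPM in WT on plate 530s, and at 0 in the other 5. Hspa1b had 0 counts in every cell. Of the 50-base stretches of Hspa1a 66.3%, and of those of Hspa1b 62.3%, also occur in other genes, chiefly in each other, so reads of the pair could have been split between them or left uncounted, and these low counts are uncertain. Of the 250 bases before their starts 247 are the same. Hspa1l, a relative expressed in testis, had 10 counts in each cell type.

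Hspa4, an Hsp110 that resets Hsp70, was at 66.9 CPM in macrophages and 60.2 in microglia. Its macrophage pools ran from 21.0 CPM (Het, plate 524s) to 119 CPM (Het, plate 529s), so the controls alone spanned the whole range. Hsph1, the heat-inducible Hsp110, stood at 33.4 and 19.4 CPM, and the top 10% of macrophages held 98.9% of its counts. Hsph1 pools ran from 4.84 to 56.8 CPM in macrophages and from 0 to 46.1 CPM in microglia. Hspa14, which works at the ribosome, was at 47.3 and 52.6 CPM. Hspa12a, Hspa12b and Hspa2 had summed levels under 7 CPM in both cell types, which is below the limit of expression. In single pools Hspa12b reached 8.68 CPM (KO macrophages, plate 524s). Hspa2, an Hsp70 of the testis, stood in macrophages at 1.84, 0.792 and 1.22 CPM in WT, 0.502, 0.809 and 0 in Het and 11.4 and 19.1 in KO pools, but in microglia its highest pools were controls, such as WT on plate 530s at 12.6 CPM.

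The ER members summed to 2334 CPM in macrophages and 2224 in microglia over 14 genes, of which 13 were expressed. Hspa5, the ER Hsp70 known as BiP, which holds the sensors of the unfolded protein response inactive, had a count in 97.8% of macrophages and 99.1% of microglia. In macrophages its WT pools were at 981, 1239 and 817 CPM, its Het pools at 981, 1300.0 and 1351 and its KO pools at 1476 and 1236. In microglia WT pools were at 837, 706 and 809 CPM, Het pools at 1022, 749 and 716 and KO pools at 983 and 939. The summed KO level in macrophages was 1414 CPM against 905 in WT and 1027 in Het, but only the KO pool of plate 060s lay above all controls. On plate 524s, where both genotypes were present, Hspa5 in KO macrophages was 0.95 times the Het level. The KO to Het log2 ratio in macrophages was 0.46, and 0.09 without plate 056s.

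Hsp90b1, the ER Hsp90 (also Grp94) that folds integrins and Toll-like receptors, stood in macrophages at 492, 385 and 429 CPM in WT, 643, 527 and 651 in Het and 612 and 583 in KO pools. In microglia its 8 pools ran only from 467 to 652 CPM. Every Het and KO macrophage pool was above every WT pool, but the sums differed by less than 1.5-fold, 1.43-fold for Het and 1.36-fold for KO over WT. With TMM factors in place of the totals, Het came out above WT by the rule of 1.5-fold. Other genes overlap 15.7% of the exon bases of Hsp90b1. Across the cells of a pool, Hspa5 and Hsp90b1 had a median Spearman rho of 0.27 in macrophages and 0.16 in microglia, positive in 7 of 8 pools of each. In macrophages this was the highest median of the chaperone pairs compared. Dnajb9, another ER member, had -0.13 and -0.02 with Hsp90b1 and 0.08 and 0.10 with Hspa5 in macrophages and microglia. These values describe cells that share a plate and a range of depths.

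The DnaJ partners of Hspa5 were Dnajc3, which also binds the kinase PERK, at 183 CPM in macrophages and 149 in microglia, Dnajb11 at 111 and 141, Dnajb9, itself a target of the unfolded protein response, at 73.6 and 74.6, Dnajc1 at 73.0 and 78.6 and the disulphide reductase Dnajc10 at 49.0 and 51.6. Dnajc3 macrophage pools ran from 134 CPM (KO, plate 524s) through a median of 189 to 306 CPM (Het, plate 524s). Dnajb11 macrophage pools ran from 75.4 CPM (WT, plate 059s) to 237 CPM (WT, plate 529s), so WT held both ends. Dnajb9 in macrophages was at 109 CPM in KO against 59.7 in WT and 78.7 in Het. The KO pools, at 112 and 99.9 CPM, were above all controls (37.6 to 87.4), but the KO level was 1.38 times that of Het, under the limit of 1.5. In microglia Dnajb9 stood at 75.5, 70.4 and 78.4 CPM in WT, Het and KO. Dnajc14, Dnajb12, Dnajb14 and Dnajc16, which are anchored in the ER membrane, stood at 111, 23.2, 64.9 and 37.2 CPM in macrophages, Hspa13 at 33.3 and Dnajc18 at 15.0. In microglia the same 6 genes stood at 68.4, 29.9, 44.9, 49.3, 45.5 and 38.6 CPM. Dnajc25 was under 2 CPM in both.

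Among the mitochondrial members Hspa9, the mitochondrial Hsp70 (mortalin), was at 125 CPM in macrophages and 86.8 in microglia. Its macrophage pools ran from 37.2 CPM (Het, plate 524s) to 156 CPM (Het, plate 056s), and its microglia pools from 57.6 to 115 CPM. Hspd1, the folding chamber Hsp60, was at 42.4 and 40.4 CPM. Hspd1 macrophage pools stood at 75.3, 35.1 and 38.0 CPM in WT, 33.2, 33.2 and 35.7 in Het and 36.8 and 40.8 in KO. All but the WT pool of plate 059s thus lay between 33.2 and 40.8 CPM. Hspe1, its lid Hsp10, was just under the limit of expression at 9.81 and 7.52 CPM although both genes share a promoter, and each transcript has 44.8% of its stretches in common with other genes, which makes their ratio uncertain. Dnaja3, the DnaJ partner of Hspa9, was at 56.8 and 36.5 CPM, Dnajc11 of the inner membrane contact sites at 63.4 and 67.3, Dnajc19 at 34.7 and 15.4, Dnajc30 at 17.9 and 25.8, Dnajc15 at 17.8 and 13.6 and Dnajc28 at 6.36 and 14.2 CPM.

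The Hspb genes, grouped by name only, were low. The 8 genes, with Hspb11 at 3.00 and 1.64 CPM among them, summed to 17.1 CPM in macrophages and 14.7 in microglia. Only Hspb6 in macrophages, at 13.4 CPM, was expressed. Hspb3, a small heat shock protein of muscle, accounted for 6.89 CPM of the microglial sum, with 501 counts in 36 of 215 cells, against 7 counts in 1 macrophage. Its microglia pools stood at 12.0, 0 and 6.92 CPM in WT, 5.34, 14.6 and 1.98 in Het and 3.44 and 5.72 in KO, and 7 of the 8 macrophage pools were at 0. In thinned cells 13.7% of microglia (9.27 to 19.1, exact binomial, counting error only) and 0.267% of macrophages (0.00675 to 1.48) had a Hspb3 count. Below the limit of 10 CPM, Hspb3 was not among the 45 genes compared between the cell types. Hspb1 (Hsp25), a common marker of the heat shock response, had 68 counts in 3 macrophages and 0 in microglia. Hspb8 had 2 counts in macrophages and 1 in microglia, and Hspb7 the same. Hspb2, which muscle expresses, had 0 counts in macrophages and 10 in 1 microglial cell. Over 116254081 counts in macrophages and 72706400 in microglia, a gene at 0 may still have been present below 3 counts. Besides Hspa1b, the genes Dnajc5b, Dnajc5g and Dnajb8 were at 0 in both cell types, and Hspb2, Hspb9 and Dnajc22 in macrophages.

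Among the general DnaJ proteins of the cytosol, Dnajb1 (Hsp40), the heat-inducible partner of Hsp70, was at 155 CPM in macrophages and 153 in microglia. Its macrophage pools stood at 156, 134 and 123 CPM in WT, 211, 168 and 186 in Het and 102 and 127 in KO. Its microglia pools were at 196, 255 and 159 CPM in WT, 134, 66.8 and 152 in Het and 61.5 and 170.5 in KO. The order of the genotypes thus was not the same in the 2 cell types, Het being the highest in macrophages and WT in microglia. Dnajb1 was unevenly spread over cells: 52.8% of macrophages and 69.3% of microglia had a count, and 10% of the macrophages held 69.2% of the counts. Thinned to 50000 counts per cell, 44.3% of macrophages (95% interval 39.2 to 49.5, exact binomial, counting error only) and 56.6% of microglia (49.5 to 63.5) had a count. Dnajc7, which carries clients between Hsp70 and Hsp90, was at 213 and 237 CPM, Dnaja2 at 83.9 and 107, Dnaja1 at 30.9 and 32.4, Dnajb4 at 26.5 and 20.0, Dnajb2 at 22.8 and 19.2 and Dnajb6, which prevents aggregation of polyglutamine, at 11.9 and 15.0 CPM. Part of the Dnajc7 transcript (9.07% of exon bases) is overlapped by other genes, and 28.8% of the Dnaja1 and 42.8% of the Dnajb6 stretches are shared.

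Among DnaJ proteins with a single client or place in the cell, Dnajc5, the cysteine string protein of secretory vesicles, was at 178 CPM in macrophages and 177 in microglia, Dnajc13 of endosomes at 133 and 106, and Dnajc8, a splicing factor partner, at 78.6 and 59.6 CPM. Per kilobase the order in macrophages was Dnajc8 at 30.8, Dnajc5 at 25.6 and Dnajc13 at 11.1 CPM per kb, and in microglia they stood at 23.3, 25.5 and 8.85. Dnajc9 was at 28.5 and 15.0 CPM and Dnajc2, which works at the ribosome, at 19.5 and 25.7. Dnajc6, the neuronal auxilin, which uncoats clathrin vesicles, had 1.88 and 1.58 CPM.

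To ask which chaperones were constant, the ratio of the highest to the lowest pool was taken for genes of at least 50 CPM, on CPM + 1. In each cell type 20 members reached that level. A gene was called steady at 2-fold or less, and 6 of 20 were in macrophages and 6 of 20 in microglia, where 16.8% and 21% of all genes of that level were. Hsp90ab1, Hsp90b1 and Hspa5 were steady in both cell types, with ratios of 1.40, 1.69 and 1.81 in macrophages and 1.48, 1.40 and 1.45 in microglia. They were also the members highest in CPM, at 865, 534 and 1024 in macrophages and 677, 561 and 890 in microglia. The shares over all genes were not matched for level, so level and steadiness cannot be told apart here. Dnajc5, Dnajc14 and Dnajc13 were steady in macrophages at 1.70, 1.71 and 1.89, and Hspa8, Dnajc1 and Hspa9 in microglia at 1.93, 1.93 and 1.98. With Rn18s kept in the total, the only macrophage member called steady was Hspa8, and in microglia Hsp90ab1 and Hspa8 were.

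A gene was called varying at 4-fold or more. This held for 5 of 20 members in macrophages and 5 of 20 in microglia, where 33.8% and 23.5% of all genes did. In macrophages they were Dnaja3 at 75.8-fold, Dnajb14 at 12.8-fold, Dnajc11 at 5.64-fold, Hspa4 at 5.46-fold and Hspa9 at 4.12-fold. The Dnaja3 ratio came from 1 pool, Het on plate 524s with 16 cells, at 0.405 CPM against 37.9 to 105 CPM in the other 7. Without plate 524s 1 of the members varied, Dnajb14, and 11 were steady. In microglia they were Dnajc10 at 7.95-fold, Dnajc11 at 4.77-fold, Dnajc8 at 4.76-fold, Hspa14 at 4.29-fold and Dnajb1 at 4.09-fold. Of these, Dnajb1 is an HSF1 target, with the KO pool of plate 060s as the lowest and the WT pool of plate 529s as the highest. Without plate 529s 2 members varied in microglia, and without plate 060s or 530s 3 did. The median ratio over the 20 members was 2.46 in macrophages and 2.52 in microglia, against 3.08 and 2.71 over all genes of that level.

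**Figure D2:**
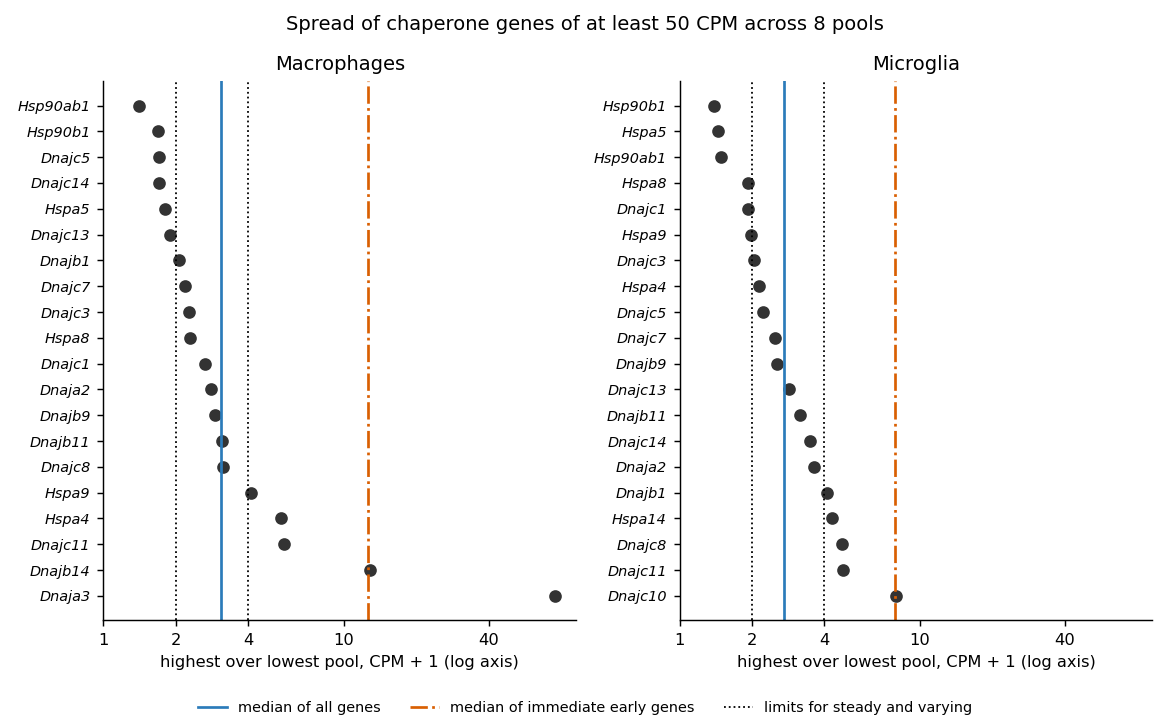
For each chaperone gene of at least 50 CPM (20 per cell type), the dot gives the ratio of the highest to the lowest of 8 pools on a log axis. The blue line is the median of all genes of that level (3.08 in macrophages, 2.71 in microglia), the orange line that of the immediate early genes (12.6 and 7.90), and the dotted lines are the limits for steady (2) and varying (4).

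Stress of the cells was read from 17 immediate early genes, among them Fos, Jun, Junb, Egr1, Ier2, Atf3 and Dusp1. Their summed level was 5123 CPM in macrophages and 4827 in microglia of the WT pool of plate 529s, against 635 to 2136 CPM and 847 to 1433 CPM in the other pools. In that WT pool the macrophages were at 1380 CPM for the 15 genes listed as HSF1 targets, where the pools ran from 1332 to 1751, and the microglia at 1313 CPM, where they ran from 914 to 1402. Hsp90ab1 and Hspa8 make up most of both sums in CPM. Hspa1a had 0 counts in both cell types of the pool, and Hsph1 and Hspa4l had 0 in its microglia. Of all thinned microglia, 17.1% had an Hsph1 count, 8.29% an Hspa4l count and 0.488% an Hspa1a count. The pool had 26 macrophages and 15 microglia, so 0 counts of such sparse genes say little. Hspe1 and Dnajb1, also on the list, went the other way, Dnajb1 in microglia only. Hspe1 stood at 14.7 CPM in macrophages and 20.6 in microglia of the pool, against 9.81 and 7.52 over all cells. Dnajb1 had the highest of its 8 microglia pools there. Among expressed genes of the list, 3 of 9 in macrophages and 4 of 8 in microglia were above the median of the other pools. The markers of cell identity also stood apart in this pool. Its 10 microglia markers summed to 3557 CPM in macrophages and 28607 in microglia, the lowest of the 8 pools in each, where the medians of the pools were 8240 and 46428. Its 10 perivascular macrophage markers summed to 37034 and 17402 CPM, the highest in each, where the medians were 29845 and 12430. Their part in the result was not tested.

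**Figure D3:**
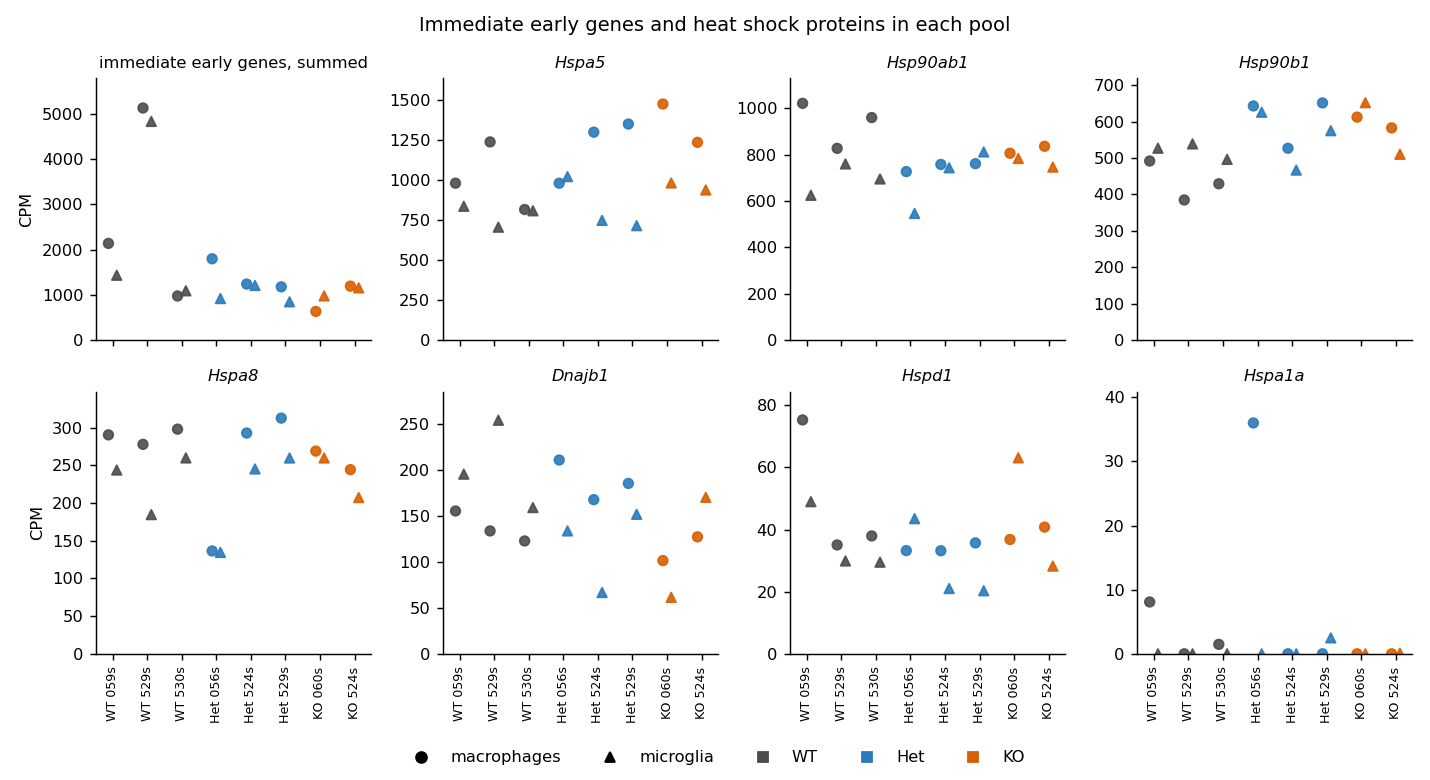
Each panel gives CPM in the 8 pools, macrophages as circles and microglia as triangles, coloured by genotype, for the summed immediate early genes and 7 heat shock genes. The immediate early sum stands out in the WT pool of plate 529s (5123 and 4827 CPM). None of the 7 heat shock panels has its highest circle there, while the Dnajb1 panel has its highest triangle there.

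A rule added after this pool was seen asked which genes were highest there and at least 2-fold above the median of the other pools. It took 1 of 41 members in macrophages, Hspb6 (0 without plate 060s or 524s), where 6.2% of all expressed genes were taken, and 8 of 43 in microglia, where 9.63% were. The 8, a larger share than in the background, were Dnaja2, Dnaja3, Dnajb2, Dnajb13, Dnajc10, Dnajc13, Dnajc18 and Dnajc27, none of them on the list of HSF1 targets. Hspe1, which is on that list, was below the limit of expression and could not be taken. The pool had 15 microglia, and without the top cell of each gene in each pool 3 members were taken. Dnajb1 in microglia was highest in this pool too, at 255 CPM, 1.67 times the median of the others. Of the immediate early genes on the list, 9 met the rule in macrophages and 8 in microglia. The pool was picked for its high immediate early sum, so these counts largely follow from that choice and are no separate result.

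Within pools, each gene was also compared with the immediate early sum across cells. A gene was said to go with it when the median Spearman rho over pools was at least 0.2 and rho was positive in all 8. This held for 0 of 41 members in macrophages, where 0.0258% of all genes did, and for 0 of 43 in microglia, where 0.0972% did. So few genes met the rule that 0 members says little. The highest medians were 0.21 for Hsph1 and 0.20 for Hspa4 in macrophages, each positive in 6 of 8 pools, and 0.22 for Dnajc11 and 0.19 for Hspa4 in microglia, positive in 6 and 7 pools. Medians as high or higher were seen in 0.27% and 0.32% of all genes in macrophages. For the 2 microglial medians these shares were 1.2% and 2.4%. The median over members was -0.0041 in macrophages and 0.016 in microglia, beside -0.00029 and 0.029 over all genes. Without plate 056s, 524s or 530s, 1 member met the rule in microglia. Counts of single cells were sparse for most members, which limits what a rank correlation can show.

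For the knockout, a gene was called apart when KO differed at least 1.5-fold from both WT and Het and both KO pools lay outside the range of the 6 control pools. In macrophages 2 of 41 members were apart, where 2.67% of all expressed genes were (1.06% higher and 1.61% lower). Hspa4l, an Hsp110 of the testis and of stressed cells, was higher in KO. Its pools stood at 12.8, 10.9 and 6.34 CPM in WT, 15.4, 0.809 and 2.60 in Het and 17.4 and 43.6 in KO. On the scale of CPM + 1, on which all folds are given, the KO level of 24.3 CPM was 2.58 times WT and 1.73 times Het. Only 14.5% of macrophages had a Hspa4l count, and without the top cell of each gene in each pool neither gene was apart. Dnajb13, an axonemal DnaJ, was lower in KO, with pools at 19.5, 14.1 and 18.1 CPM in WT, 9.00, 83.4 and 29.0 in Het and 8.84 and 8.47 in KO. The distance between the lowest Het and the highest KO pool was small. Exons of Dnajb13 overlap Ucp2 on the opposite strand, which was counted at 1561 CPM, and with unstranded libraries reads of the pair cannot be told apart. Without plate 524s, neither Hspa4l nor Dnajb13 was apart, while without plate 060s 11 members were apart and without plate 056s 5.

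In KO microglia 2 of 43 members were apart, where 2.35% of all expressed genes were (1.35% higher and 1.01% lower). Dnajc14 was higher, with pools at 60.3, 44.9 and 40.8 CPM in WT, 34.1, 103.0 and 63.7 in Het and 121 and 104 in KO. The sums were 54.7 CPM in WT, 49.4 in Het and 112 in KO. On plate 524s the KO pool was 1.01 times the Het pool. In thinned cells 66.7% of KO microglia had a Dnajc14 count, against 36.4% in WT and 49.1% in Het. The exact binomial intervals, which cover counting error only, were 54.8% to 77.1% in KO, 25.7% to 48.1% in WT and 35.1% to 63.2% in Het. Exons of Dnajc14 overlap Ormdl2, Sarnp and Tmem198b, and 25.6% of its stretches are shared with the first 2, so that this row may hold reads of its neighbours. Dnajc15, which sits in the inner mitochondrial membrane, was lower at 7.58 CPM in KO, 17.0 in WT and 14.5 in Het. Its pools stood at 17.5, 8.41 and 20.6 CPM in WT, 17.3, 8.13 and 10.2 in Het and 7.10 and 7.95 in KO, so that the KO pools lay just under the lowest controls. Without plate 056s 0 members were apart in KO microglia, where the log2 ratio of KO to Het was 0.54 for Dnajc14 and -0.30 for Dnajc15. Without plate 524s 7 were apart.

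Between Het and WT, a gene was called apart at 1.5-fold with no overlap of the 3 Het and 3 WT pools. In macrophages this held for Dnajb1, 1 of 41 members, where 7% of all expressed genes were apart (2.09% higher and 4.91% lower in Het). Dnajb1 was at 207 CPM in Het and 134 CPM in WT, with the lowest Het pool at 168 and the highest WT pool at 156. On plate 529s alone the Het pool was 1.38 times the WT pool. With the mean of the cells' own CPM in place of the sum, the log2 ratio of Het to WT went from 0.62 to 0.10. Dnajb1 was not apart with these means, in thinned cells, without the top cell of each gene in each pool, or without plate 056s or plate 530s. In microglia it held for Dnajc9, 1 of 43 members, where 5.54% of all expressed genes were apart (2.57% higher and 2.97% lower in Het). Dnajc9 pools stood at 7.01, 0 and 12.2 CPM in WT and 18.4, 36.3 and 12.7 in Het, with sums of 7.23 CPM in WT and 19.1 CPM in Het. The highest WT and the lowest Het pool were close to each other, and Dnajc9 was not apart in thinned cells, with means of cells or without the top cells. Leaving out single plates gave up to 10 members apart in macrophages (without plate 056s) and up to 8 in microglia (without plate 529s). With Rn18s kept in the total, the log2 ratio of Het to WT macrophages of the median gene moved by 0.46 and that of KO to Het by -0.41, and neither Dnajb1 nor Dnajc9 was apart. Over the expressed members the median log2 ratio of KO to WT macrophages was 0.12, beside -0.08 over all genes.

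**Figure D4:**
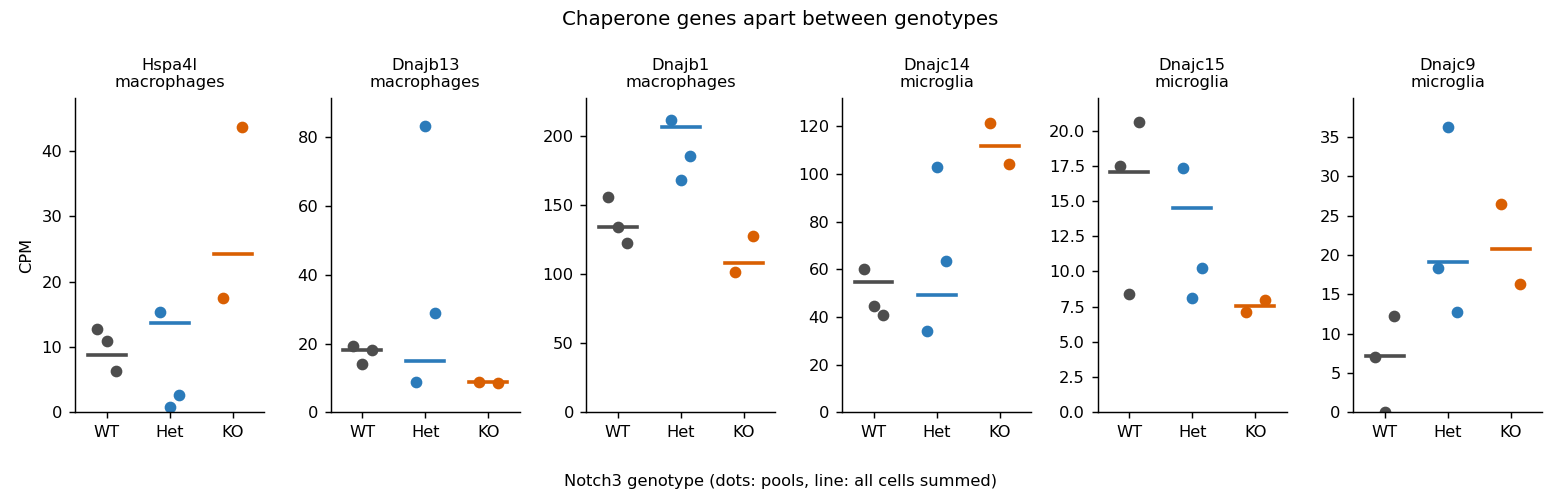
Pool levels in CPM (dots) and the level of all cells of a genotype summed (lines) for the 6 genes called apart between genotypes, 3 in macrophages and 3 in microglia. The summed lines follow the largest pools, and the KO dots of Dnajc15 (7.10 and 7.95 CPM) and Dnajb13 (8.84 and 8.47) lie just under the lowest control.

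The partners of the chaperones were read from lists of other genes. Of 24 HSF and cytosolic co-chaperone genes 20 were expressed, among them the polyubiquitin gene Ubb at 222 CPM in macrophages and 186 in microglia. Hsf1, the heat shock factor itself, stood at 83.2 and 82.8 CPM. Ubb was the only one of this list apart in KO (background 2.67% in macrophages and 2.35% in microglia), at 138 CPM in KO macrophages against 230 in WT and 249 in Het. In Het macrophages Bag1, a nucleotide exchange factor of Hsp70, was lower at 3.97 against 27.5 CPM in WT, and Hspbp1, another exchange factor, was lower at 23.3 against 63.6 CPM, 2 of the list where 7% of all expressed genes were apart. All 19 ER folding genes on the list were expressed, among them the disulphide isomerases Pdia3 at 1075 and 1290 CPM and P4hb at 604 and 654 CPM. None of them was apart in KO, and in Het macrophages Atf6, a sensor of the unfolded protein response, and Sec63 were lower, at 63.7 against 111 CPM and 5.74 against 13.6 CPM in WT. These were 2 of this list, where 7% of all expressed genes were apart. Ern1, another sensor, was higher in Het microglia at 22.7 against 10.2 CPM, the 1 of this list apart there, where 5.54% of all expressed genes were. Of the 14 ER folding genes of at least 50 CPM in macrophages 8 were steady and 0 varied, and of 13 in microglia 8 were steady and 1 varied. Over all genes of at least 50 CPM, 16.8% and 21% were steady and 33.8% and 23.5% varied, shares that were not matched for level. Of 8 mitochondrial folding genes 7 were expressed, among them in macrophages Clpx at 94.5 CPM and Timm44 at 84.9. The protease Clpp was lower in KO macrophages at 15.3 CPM against 32.0 in WT and 65.5 in Het. It was the 1 of this list apart there, where 2.67% of all expressed genes were. The calls of partner genes were not recomputed with other scalings or without single plates or top cells, as those of members were.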

How the data were processed

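Single cells were assigned to genotype, plate and cell type from the labels. The deposited table holds raw read counts per gene and cell, with no normalisation by the authors. Per the submitters' processing notes reads were aligned with STAR. Not given in the sources used here are the build, the annotation and the counting program. The 629 columns all matched a sample and no pair was identical. ERCC spike-ins (1.22% of counts) and Rn18s were left out of totals. Counts were summed over cells, scaled to CPM and compared as log2(CPM + 1) with scipy 1.17.1, numpy 2.4.6 and pandas 2.3.3 under Python 3.11.15. TMM factors came from edgeR 4.0.16. Summed counts without Rn18s were 116254081 in macrophages and 72706400 in microglia, with a median per cell of 197196 and 246554 and a range of 1488 to 2107020 over all cells. Reads can be PCR copies, so intervals cover counting error only. Exon overlaps and shared 50-base stretches were taken from GENCODE M21, which held all 72 genes. The 14 cells of a type named 7 entered no comparison. Genes named are the expressed members of the HSF1, ER, mitochondrial and Hsp70/90/110 lists, all members called by a rule, the extremes and members at 0, and of partner genes those called and the 2 highest, of which 1 is not reported here. Other DnaJ members were named after their values were seen. The rules were run on simulated counts without differences between plates or pools, which cannot show how often unchanged genes are called in these data. The members, rules and lists were chosen with earlier results of these data known.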

Additional observations from a re-analysis of the deposited data

How the results depend on the processing

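Each count of members and 29 ratios of named members were recomputed under 17 alternatives, and of 241 recomputed counts 168 stayed within 1.5 times the main count. The 0 members apart between cell types remained 0 except without plate 524s or 530s, where it was 1. No paired analysis was possible because the replicate numbers only name single cells. Plates 524s and 529s hold 2 genotypes each, and their pools can be set side by side from the values by pool in the report. On both plates the 2 genotypes differed in sex, so such a comparison cannot tell genotype from sex. The rank correlations were not rerun with other factors, pseudocounts or means of cells, which do not apply to them. Nor were they rerun without top cells, which could change them. Pools of 15 to 28 cells limit most genes under 50 CPM. The cause of the changes below was not tested.

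Members apart between Het and WT macrophages (1 in the main analysis) were 3 with TMM factors, 2 with median-of-ratios factors, thinned cells or means of cells, 5 without the filter on low counts and 0 with Rn18s in the total. Dnajb1 was not among them when thinned or with means of cells, and without top cells the 1 member apart was Hspa14. In microglia (1) they were 0 with TMM or median-of-ratios factors, a doubled level minimum or Rn18s, and 2 thinned or unfiltered. Dnajc9 was not among those thinned, and with means of cells or without top cells the 1 member apart was Dnaja3 or Dnajb1. Members apart in KO macrophages (2) were 4 with TMM factors, 1 with median-of-ratios factors, thinning or a pseudocount of 5, and 0 with a doubled minimum, Rn18s or without the top cell of each gene in each pool. In KO microglia (2) they were 1 with TMM or median-of-ratios factors, a doubled minimum, means of cells, Rn18s or without top cells. Unfiltered, 72 members counted as expressed, 18 and 15 as steady and 35 and 38 as varying in macrophages and microglia. With Rn18s 1 and 2 were steady and 1 and 2 varied. With a doubled minimum 1 varied in each, with means of cells 3 in macrophages and with a pseudocount of 5, 3 in microglia. Members high in the WT pool of plate 529s in macrophages (1) were 0 with a doubled minimum, Rn18s or without top cells and 4 unfiltered. In microglia (8) they were 4 thinned or with means of cells, 5 with a doubled minimum, 2 with Rn18s and 3 without top cells. Of the 493 recomputed ratios 19 moved by more than the SD of pools, all of them of Dnajb1, Dnajb13, Dnajc14, Dnajc15, Dnajc28, Hsp90aa1, Hsp90b1, Hspa4l, Hspa5, Hspa8 or Hspb3, and 2 changed sign, Dnajc24 between the cell types (0.0072 thinned) and Hspa8 between Het and WT macrophages (0.0447 without plate 056s, and -1.0015 at the other end when single plates were left out).

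Leaving out each plate in turn gave 1 to 10 members apart between Het and WT macrophages and 1 to 8 in microglia, 0 to 1 between cell types, 2 to 11 in KO macrophages and 0 to 7 in KO microglia. It gave 41 to 42 and 43 to 44 expressed members, 6 to 11 and 6 to 9 steady, 1 to 5 and 2 to 5 varying, 0 to 1 and 8 to 9 high in the WT pool of plate 529s, and 0 to 0 and 0 to 1 that went with the immediate early genes, in macrophages and microglia.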

Other observations

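The 14 cells that the labels place in a type named 7 belong to no comparison. Together they held 763324 counts without Rn18s. Dnajb1 stood there at 405 CPM, of which 91.6% came from 1 cell, and Hspa1a at 51.1 CPM, of which 97.4% came from 1 cell. Dnajb1 had a count in 9 of the 14 cells and Hspa1a in 2.

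Some pairs of chaperones went together across the cells of a pool more than others. In macrophages the median Spearman rho was 0.22 for Hspa8 and Hsp90ab1 and 0.14 for Hspa8 and Dnaja1, both positive in 8 of 8 pools. In microglia they were -0.01 and 0.17, positive in 4 and 5 pools. Hspd1 and Dnajb9, a mitochondrial and an ER member, had 0.14 in macrophages and 0.25 in microglia. The points share a plate, a cell's depth and the scaling to its total.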
